A study of Mus musculus with 2 samples.

Results

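The tumor necrosis factor (TNF) superfamily was examined in the interscapular brown fat (iBAT), a thermogenic depot of the upper back, of mice with and without uncoupling protein 1. Its members were taken by gene symbol, as all genes named Tnfsf or Tnfrsf together with Tnf, Lta, Ltb, Ltbr, Fas, Fasl, Cd27, Cd40, Cd40lg, Cd70, Eda and Edar. This gave 45 of the 27179 genes counted. Of these, 18 encode ligands and 25 encode receptors. The other two are Tnfsf13os, an antisense RNA, and Tnfsfm13, a read-through gene that joins Tnfsf12 and Tnfsf13.

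TNF ligands are mostly membrane proteins that assemble as trimers, and many are released from the cell surface by proteases. Their receptors act through intracellular adaptors of the TRAF family, which lead to the transcription factor NF-kappaB, or through a death domain, which can lead to caspase activation. In adipose tissue TNF is known as an inhibitor of adipogenesis and of insulin action, and macrophages are regarded as one of its main sources.

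There were 2 libraries, 1 wild-type and 1 Ucp1-KO, both from untreated C57BL/6N mice that were 20 days old and labelled as male. Each library was made from the pooled iBAT of 3 animals, so there were no replicates, no p-value was computed, and every difference is one between these 2 pools. The Ucp1-KO animals carried the deletion on both alleles (Δ/Δ), and the labels do not describe it further. Differences are given as the log2 ratio of Ucp1-KO over wild-type on counts normalised by size factors, and as normalised counts per kilobase of transcript where genes are compared with each other. Intervals after a ratio are exact 95% counting intervals. They and the floor of 6 counts set for a count of 0 cover counting error only and not the spread between animals.

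The libraries held 52950913 wild-type and 53216727 Ucp1-KO counts, with 22.4% and 36.7% of them from genes of mitochondrial DNA. Ucp1, the targeted gene, had 366473 wild-type and 37853 Ucp1-KO counts, a Ucp1-KO level of 0.127 (0.125 to 0.129) of wild-type. From the Y chromosome, Uty, Ddx3y, Eif2s3y and Kdm5d had 0 wild-type and 491 to 3446 Ucp1-KO counts, and Xist, the RNA of the inactive X chromosome, had 32380 and 16478 counts, so sex-linked transcripts went against the label in both libraries. Skeletal muscle markers were lower in Ucp1-KO for 8 of 8 genes, with a summed level of 4913 wild-type and 557 Ucp1-KO CPM (each library scaled to the same total). Brown adipocyte markers were higher beyond counting error for 7 of 7 genes, from 3020 to 4558 CPM, and endothelial markers were lower for 7 of 7, from 1931 to 960 CPM. The part of these differences in the values below was not tested. In bulk tissue fewer cells of a type and less RNA per cell cannot be told apart.

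Of the 45 members, 28 reached a mean of 10 normalised counts and were examined, namely 8 ligands, 19 receptors and Tnfsf13os. The remaining 17 are given by their counts only. A difference of at least 2-fold was found for 3 of these 28 higher in Ucp1-KO (10.7%, against 7.42% of all 15212 genes with that mean) and for 7 lower (25%, against 9.55%). The interval of the log2 ratio lay above 0 for 6 members (21.4%, against 31.5% of all genes) and below 0 for 11 (39.3%, against 30.5%). The remaining 11 members had intervals that held 0. The median log2 ratio was -0.31 over the 28 members and -0.0016 over all genes. Only 18 members had a mean of at least 50, and their median was 0.004, so the direction of the median rests on members of low counts. At that mean 2 of the 18 were at least 2-fold lower, against 811 of 12846 genes. Most of the 7 lower members thus had few counts, where a 2-fold difference is reached more easily.

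**Figure D1:**
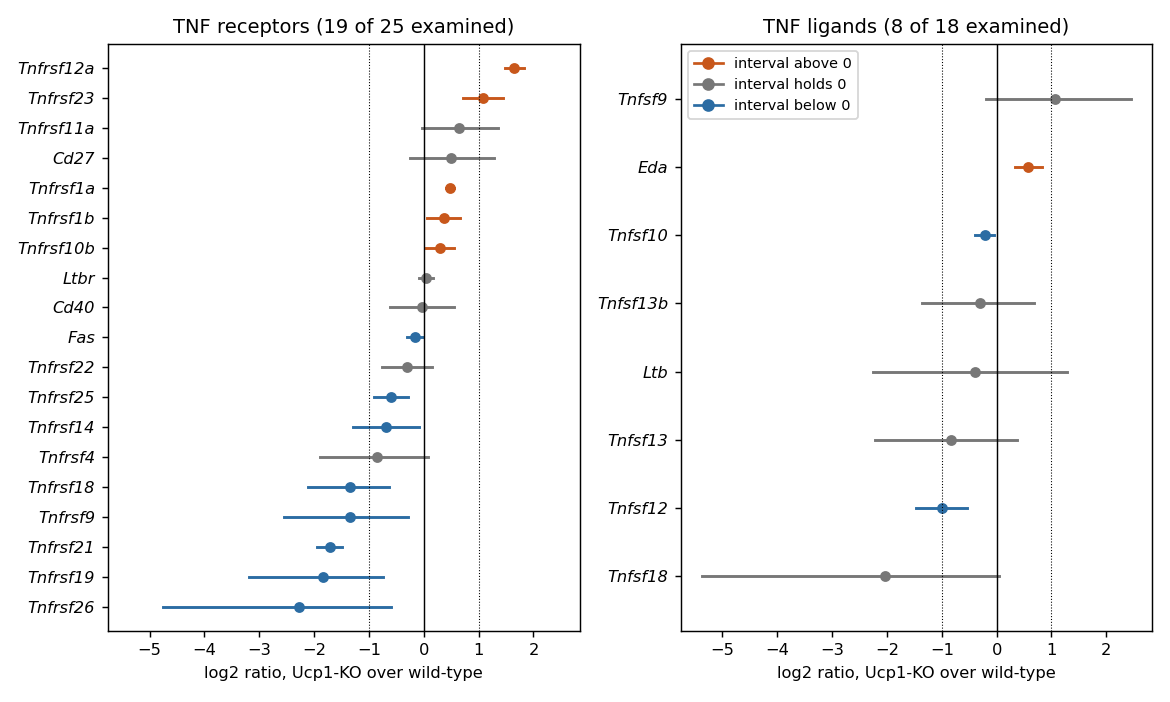
Log2 ratio of Ucp1-KO over wild-type (x axis) for the 19 receptors and 8 ligands examined, with exact 95% counting intervals as bars. Dotted lines mark a 2-fold difference. Tnfrsf12a (1.65) has the highest ratio, Tnfrsf21 (-1.71) has a narrow interval below the line, and the widest intervals belong to the members with the fewest counts, such as Tnfsf18 and Tnfrsf26.

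Tnfrsf12a, Tnfrsf21 and Tnfrsf23 had the narrowest intervals among the members past 2-fold, and their promoters are shown because they carry the main differences. Each sequence is the 250 bases before the start of the gene in RefSeq on GRCm38.p6, 5′ to 3′ on the strand of the gene, from chr17:23677450-23677699 (minus) for Tnfrsf12a, chr17:43016305-43016554 (plus) for Tnfrsf21 and chr7:143685876-143686125 (minus) for Tnfrsf23. Capitals mark matches to the spacing of an NF-kappaB site, GGGNNNNNCC, on either strand.
Tnfrsf12a: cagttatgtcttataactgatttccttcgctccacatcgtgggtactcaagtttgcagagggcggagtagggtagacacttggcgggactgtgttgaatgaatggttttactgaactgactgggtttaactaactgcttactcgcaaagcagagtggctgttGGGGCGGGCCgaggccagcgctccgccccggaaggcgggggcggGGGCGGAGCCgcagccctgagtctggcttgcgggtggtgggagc
Tnfrsf21: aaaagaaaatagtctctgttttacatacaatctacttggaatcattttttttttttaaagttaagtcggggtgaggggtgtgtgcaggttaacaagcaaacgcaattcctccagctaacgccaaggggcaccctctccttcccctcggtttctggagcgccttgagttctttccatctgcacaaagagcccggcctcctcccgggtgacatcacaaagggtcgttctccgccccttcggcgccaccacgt
Tnfrsf23: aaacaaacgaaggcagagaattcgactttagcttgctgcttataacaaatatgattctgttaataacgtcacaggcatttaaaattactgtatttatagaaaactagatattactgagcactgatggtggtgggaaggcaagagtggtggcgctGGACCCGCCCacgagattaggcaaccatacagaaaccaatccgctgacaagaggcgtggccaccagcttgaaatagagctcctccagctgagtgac
The Tnfrsf12a promoter held 2 matches, starting at -88 and -44 from the start of the gene, and the Tnfrsf23 promoter held 1, at -96 on the opposite strand. The spacing is loose and was present in 45.8% of all 32851 promoters of that length and in 24 of the 38 promoters of members. These 38 promoters belong to the 34 members with an entry. An AP-1 site, TGANTCA, was in 6.75% of all promoters, in 6 of the 38 promoters of members and in none of the 3 shown. The letters TGATGCAA of a C/EBP-ATF site were in 0.791% of all promoters and in none of the members. A match is a run of letters and not a measured binding site.

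Among the receptors the largest difference upward was that of Tnfrsf12a (Entrez 27279), the receptor of TWEAK, which is known to be induced by growth factors and tissue injury. It had 755 wild-type and 1930 Ucp1-KO counts, or 14.3 and 36.3 CPM. Its log2 ratio was 1.65 (1.48 to 1.83), so the level was 3.15-fold (2.79 to 3.55) higher in Ucp1-KO. The gene has 4 exons on chromosome 17 (GRCm39, 23894416 to 23896468, minus strand). All 1965 of its exon bases lie opposite exons of Hcfc1r1 in the annotation. Hcfc1r1 itself had 2145 wild-type and 1674 Ucp1-KO counts, a log2 ratio of -0.06 (-0.19 to 0.07). The libraries were directional, but how the counting treated strand was not stated. If strand was ignored, reads of this pair could not be told apart.

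Tnfrsf21 (Entrez 94185), a death domain receptor also known as DR6, moved the other way. It had 1748 wild-type and 433 Ucp1-KO counts, a log2 ratio of -1.71 (-1.94 to -1.50). The Ucp1-KO level was thus 0.305 (0.262 to 0.354) of wild-type. The gene lies on chromosome 17 (GRCm39, 43327349 to 43400081, plus strand) and none of its exon bases overlap another gene. The skeletal muscle and endothelial markers were lower in the same library, and their part in this value was not tested.

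Of the other death domain receptors, Tnfrsf1a, the widely expressed receptor of TNF, had 6152 wild-type and 6992 Ucp1-KO counts, a log2 ratio of 0.48 (0.41 to 0.55). Tnfrsf10b, the mouse death receptor for TRAIL, had 513 and 512 counts with a log2 ratio of 0.30 (0.04 to 0.55), which turned to -0.01 when libraries were scaled by total counts. Fas, the receptor of Fas ligand, had 1906 and 1384 counts and a log2 ratio of -0.16 (-0.31 to -0.02). Within the death domain group the direction thus differed from gene to gene. Tnfrsf25, a death domain receptor of T cells also known as DR3, had 489 and 264 counts and a log2 ratio of -0.59 (-0.91 to -0.28). It shares 17.1% of its exon bases with Espn on the opposite strand, and Espn had 59 wild-type and 4 Ucp1-KO counts. Edar, the receptor of ectodysplasin, had 2 and 6 counts and was too low to examine. Altogether 5 of the 6 death domain receptors were examined, 1 was lower past 2-fold (against 9.55% of all genes), and the median was -0.16.

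The decoy receptors bind ligand without passing on a death signal. Tnfrsf23 (Entrez 79201), a decoy receptor for TRAIL, had 211 wild-type and 362 Ucp1-KO counts. This was a 2.11-fold (1.65 to 2.71) higher level in Ucp1-KO. Its neighbour and near relative Tnfrsf22 had 208 and 137 counts with a log2 ratio of -0.30 (-0.76 to 0.15), whose interval holds 0. Both lie on chromosome 7 (GRCm39, 143219546 to 143239611 and 143187219 to 143203408, minus strand). Of the stretches of 100 bases in the Tnfrsf23 transcript, 16% also occur in Tnfrsf22, so a part of the reads of one could be assigned to the other or dropped. Tnfrsf26, the third receptor of this cluster (143161396 to 143182459), had 38 and 6 counts and a log2 ratio of -2.28 (-4.76 to -0.60). The 3 neighbours therefore had 1 member above 2-fold, 1 within it and 1 below it. Tnfrsf11b, the soluble decoy osteoprotegerin, had 0 wild-type and 8 Ucp1-KO counts. The interval of its log2 ratio began at -0.30, so no direction was detectable at this depth.

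The costimulatory receptors of lymphocytes were below 0 for 4 of the 5 examined and beyond counting error for 3 (against 30.5% of all genes), with a median of -0.86 and a summed level of 9.01 wild-type and 4.36 Ucp1-KO CPM. Tnfrsf18 (GITR), typical of regulatory T cells, had 135 and 43 counts and a log2 ratio of -1.34 (-2.12 to -0.63). Over 35.9% of its exon bases another RNA, Gm16008, is annotated on the opposite strand. Tnfrsf9, a costimulator induced on activated T cells, had 63 and 20 counts and a log2 ratio of -1.34 (-2.55 to -0.29). Tnfrsf4 (OX40), another receptor of activated T cells, had 63 and 28 counts and a log2 ratio of -0.86 (-1.89 to 0.08). Its interval holds 0. Tnfrsf14 (HVEM), which binds LIGHT and the inhibitory receptor BTLA, had 146 and 74 counts and a log2 ratio of -0.68 (-1.29 to -0.09). Cd27, the receptor of CD70, was the exception to the direction, with 58 and 67 counts and a log2 ratio of 0.50 (-0.25 to 1.28). Tnfrsf8 (CD30) had 12 wild-type and 0 Ucp1-KO counts, and the interval of its log2 ratio ended at 0.06, just past an equal level. The 7 T cell markers had a summed level of 2.97 wild-type and 1.58 Ucp1-KO CPM. The 5 T cell markers examined lay on both sides, 2 past 2-fold in each direction, and Cd3d had 10 and 0 counts. Beyond counting error 0 of these 5 were higher and 1, Cd4, was lower. Cd4 had 59 and 13 counts and a log2 ratio of -1.85 (-3.37 to -0.63). The part of T cell RNA in the receptor values was not tested.

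Among the receptors of B cells and antigen-presenting cells, Cd40 had 118 and 94 counts and a log2 ratio of -0.03 (-0.61 to 0.55). The receptors for BAFF and APRIL were barely counted, with 1 and 2 counts for Tnfrsf13b (TACI), 6 and 0 for Tnfrsf13c (BAFF receptor), and 2 and 0 for Tnfrsf17 (BCMA). B cell markers summed to 3.25 wild-type and 2.74 Ucp1-KO CPM, but on normalised counts to 1.04 times the wild-type level. The 4 examined had a median log2 ratio of 0.19 (-0.11 with total counts), and all 4 intervals held 0.

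The remaining receptors act through TRAF proteins or have less settled roles. Ltbr, the lymphotoxin beta receptor and a classical activator of the alternative NF-kappaB pathway, had 2176 and 1813 counts and a log2 ratio of 0.04 (-0.09 to 0.16). Scaling by total counts turned its sign (-0.27). Tnfrsf1b, the TNF receptor that lacks a death domain, had 368 and 384 counts and a log2 ratio of 0.36 (0.06 to 0.66). Tnfrsf11a (RANK), the receptor that drives osteoclast formation, had 66 and 84 counts and a log2 ratio of 0.64 (-0.04 to 1.35). Both receptors of TNF were thus above 0 beyond counting error, though with total counts Tnfrsf1a was at 0.18 and Tnfrsf1b at 0.05. The interval of RANK held 0. Tnfrsf19 (TROY), an orphan-like receptor of developing tissues, had 72 and 16 counts and a log2 ratio of -1.84 (-3.19 to -0.74), with 14.9% of its exon bases opposite other RNAs.

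Per kilobase of transcript, Tnfrsf1a was the most abundant receptor in both libraries, with 2549 wild-type and 3567 Ucp1-KO normalised counts per kilobase. In wild-type it was followed by Fas (1155), Ltbr (927), Tnfrsf12a (675) and Tnfrsf21 (430), each apart from the next by more than counting error. That order rests on the length of the canonical transcript. With the length of all exon bases, a choice added after seeing the data, Ltbr (820) came before Fas (741) and Tnfrsf21 (358) before Tnfrsf12a (346), each pair with overlapping intervals. In Ucp1-KO the order was Tnfrsf1a, Tnfrsf12a (2124), Fas (1032) and Ltbr (951), and the intervals of Fas and Ltbr overlapped. Tnfrsf12a also followed Tnfrsf1a there with the length of all exon bases. By both lengths Tnfrsf12a thus stood below Fas and Ltbr in wild-type and next to the top in Ucp1-KO, while Tnfrsf21 (131) came to lie level with Tnfrsf25 (123). As a share of all normalised receptor counts, Tnfrsf12a took 4.93% in wild-type and 13.2% in Ucp1-KO, and Tnfrsf1a took 40.2% and 47.7%. The receptors summed to 289 wild-type and 275 Ucp1-KO CPM. On normalised counts the sum was 1.18 times the wild-type sum, so the direction of the sum depends on the scaling.

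**Figure D2:**
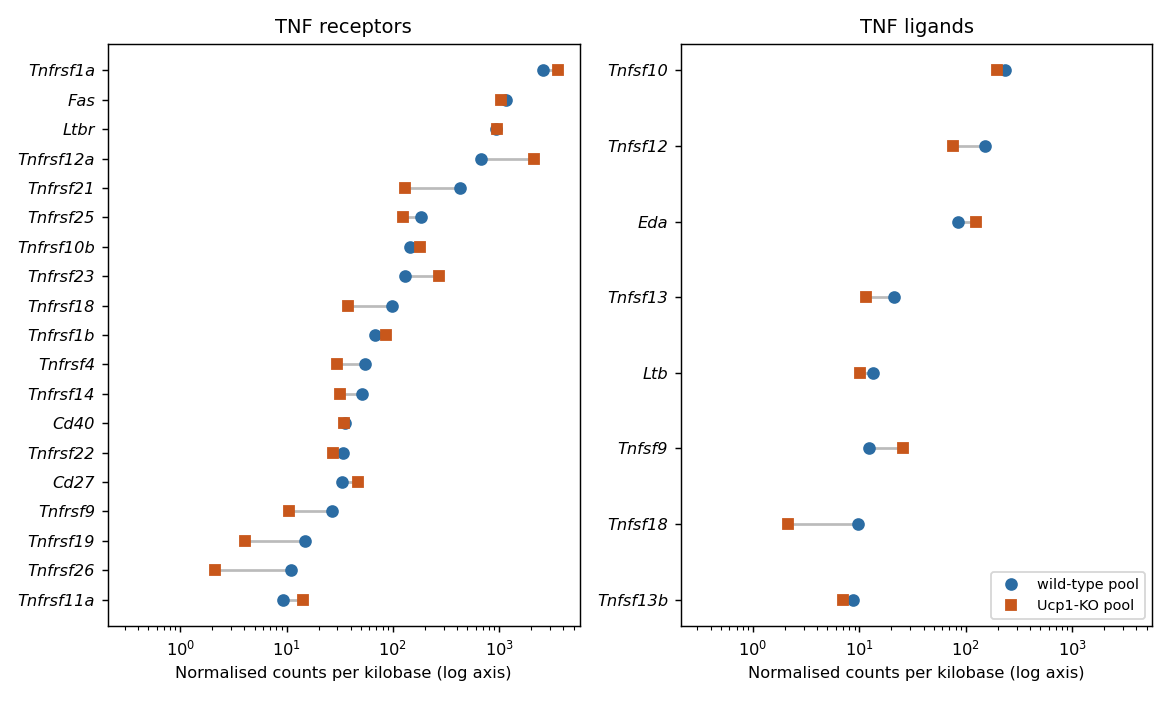
Normalised counts per kilobase of transcript (x axis, log scale) of the examined receptors and ligands in the wild-type pool (circles) and the Ucp1-KO pool (squares), ordered by the wild-type level. Tnfrsf1a leads in both pools, Tnfrsf12a moves from 675 to 2124, and Tnfsf10, at 231 and 198, is the highest ligand.

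Among the ligands, Tnfsf10 (TRAIL), which can induce apoptosis through Tnfrsf10b, was the most abundant per kilobase in both libraries. It had 1278 wild-type and 889 Ucp1-KO counts and a log2 ratio of -0.22 (-0.40 to -0.05). Eda, ectodysplasin, which directs the development of skin appendages, had 474 and 576 counts and a log2 ratio of 0.58 (0.33 to 0.83). Eda is X-linked, and the sex-linked transcripts given above differed between the pools. Its receptor Edar was near 0 in both libraries, and the adaptor Edaradd was listed at 0. The other receptor of ectodysplasin, Eda2r, lies outside the symbol rule and had 313 and 85 counts with a log2 ratio of -1.58 (-2.11 to -1.08). Eda2r is X-linked too, so the same limit holds for its value.

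Tnfsf12 (TWEAK), the ligand of Tnfrsf12a, had 283 wild-type and 115 Ucp1-KO counts. Its Ucp1-KO level was 0.5 (0.362 to 0.684) of wild-type, and unrounded it fell just short of the 2-fold rule. Ligand and receptor of this pair therefore lay on opposite sides of 0, both beyond counting error. Per kilobase the ligand had 151 wild-type and 75.6 Ucp1-KO normalised counts, against 675 and 2124 for the receptor. Tnfsf12 and Tnfsf13 lie next to each other on chromosome 11 (GRCm39, 69577076 to 69586928 and 69573403 to 69576610, minus strand). The read-through Tnfsfm13 covers 52.4% of the exon bases of Tnfsf12 and 65.7% of those of Tnfsf13 and was listed at 0 in both libraries. How the counting treated shared bases was not stated. Reads there could have been dropped, so the values of these 3 genes, also per kilobase, may be too low. Tnfsf13 (APRIL), a survival factor of plasma cells, had 38 and 17 counts and a log2 ratio of -0.84 (-2.22 to 0.37). The antisense RNA Tnfsf13os had 48 and 14 counts and a log2 ratio of -1.45 (-2.94 to -0.22). All 3 examined members at this position were below 0, 2 of them beyond counting error (against 30.5% of all genes). Of these, Tnfsf13 and Tnfsf13os share 256 exon bases. Senp3, which shares 88 exon bases with Tnfsf13os, had a log2 ratio of 0.25 (0.15 to 0.35).

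The other examined ligands had few counts. Tnfsf9, the ligand of the costimulator Tnfrsf9, had 18 wild-type and 31 Ucp1-KO counts, a log2 ratio of 1.06 (-0.19 to 2.45). It counts among the 3 members at least 2-fold higher, but its interval holds 0. Tnfsf18, the ligand of GITR, had 22 and 4 counts and a log2 ratio of -2.04 (-5.37 to 0.04), likewise past 2-fold with an interval that holds 0. Tnfsf13b (BAFF), the B cell survival factor, had 46 and 30 counts and a log2 ratio of -0.31 (-1.36 to 0.68). Ltb, lymphotoxin beta, had 18 and 11 counts and a log2 ratio of -0.40 (-2.25 to 1.28). For these 4 ligands neither direction was detectable at this depth.

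Tnf itself was below the mean of 10, with 18 wild-type and 2 Ucp1-KO counts, or 0.34 and 0.0376 CPM. Its ratio of Ucp1-KO over wild-type was 0.137, with an interval from 0.00312 to 0.987 that nearly reaches an equal level. If both mates of a pair were counted, the 2 Ucp1-KO counts are a single read pair. On normalised counts the receptors of TNF were higher in the same library, at 1.4-fold (1.33 to 1.47) for Tnfrsf1a and 1.28-fold (1.04 to 1.58) for Tnfrsf1b, the latter not with total counts. Macrophage markers summed to 1.28 times the wild-type level on the same scale, and to 116 wild-type and 121 Ucp1-KO CPM. Their part in the receptor values was not tested.

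Altogether 17 members were too low to examine, and 4 of them, Tnfsf4, Lta, Cd70 and Tnfsfm13, were listed at 0 in both libraries. A listed 0 need not mean that the RNA was absent, since Sdhd, a respiratory chain gene that every cell uses, was also at 0 in both. Tnfsf14 (LIGHT), a ligand of Ltbr and HVEM, had 0 wild-type and 16 Ucp1-KO counts, and the interval of its log2 ratio began at 1.07. Tnfsf8, the ligand of CD30, had 0 and 8 counts with an interval that began at -0.30 and so held 0. Tnfsf11 (RANKL) had 8 and 4 counts. Cd40lg had 6 and 0 counts, and Fasl and Tnfsf15 each had 4 and 0, all at or below the floor, so no fold is given for them. Among these 17 members the ligands of the lymphocyte receptors other than Tnfsf14 were thus at the limit of counting in both pools.

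Several members share a chromosome, though not always as near neighbours. On chromosome 4, where Tnfrsf4 and Tnfrsf18 are neighbours, 5 of 6 examined members were below 0, and Tnfrsf1b was the exception. These 5 are Tnfrsf25 and the costimulatory receptors Tnfrsf4, Tnfrsf9, Tnfrsf14 and Tnfrsf18 given above, so this is not a separate observation. Beyond counting error 4 of the 6 were lower, against 30.5% of all genes. Of all 15212 genes, 7620 were below 0 and 7592 above it. On chromosome 6 the 3 members Tnfrsf1a, Ltbr and Cd27 were all above 0, with a median of 0.48, but only Tnfrsf1a was so beyond counting error. Chromosome 17 held Tnfrsf12a and Tnfrsf21, with their differences in opposite directions.

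The adaptors and ubiquitin ligases behind the receptors showed no common direction. Of 21 genes 20 were examined, 8 had intervals above 0 (40%, against 31.5% of all genes), 4 below 0 (20%, against 30.5%), and the median was -0.0073. Tank, which binds TRAF proteins and the kinase TBK1, was the only one past 2-fold, with 1788 wild-type and 2983 Ucp1-KO counts and a log2 ratio of 1.04 (0.92 to 1.16). Rbck1 (HOIL-1), a subunit of the linear ubiquitin ligase, had 3996 and 1743 counts and a log2 ratio of -0.90 (-1.01 to -0.78). Fadd, the adaptor that recruits caspase-8, had 516 and 241 counts and a log2 ratio of -0.80 (-1.12 to -0.48). Tank and the pair Rbck1 and Fadd thus moved in opposite directions. Of the 9 death signalling genes, 4 were above 0 (44.4%, against 31.5% of all genes) and 2 below 0 (22.2%, against 30.5%) beyond counting error, with a median of 0.13 that turned to -0.18 with total counts. Bid, which links death receptors to mitochondria, had 161 and 266 counts and a log2 ratio of 1.02 (0.61 to 1.44). Ripk3, a kinase of necroptosis, had a log2 ratio of 0.62 (0.37 to 0.88), and Casp8, the initiator caspase, one of 0.55 (0.42 to 0.68).

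The subunits and kinases of NF-kappaB were more often higher, with 6 of 9 intervals above 0 (66.7%, against 31.5% of all genes), 1 below 0 and a median of 0.70. Relb had 373 wild-type and 777 Ucp1-KO counts, a log2 ratio of 1.36 (1.10 to 1.62). Nfkb2, its partner in the alternative pathway, had 699 and 1311 counts and a log2 ratio of 1.21 (1.02 to 1.40). Map3k14 (NIK), the kinase of that pathway, had 189 and 291 counts and a log2 ratio of 0.92 (0.54 to 1.31). The 3 genes largest in size of this list belong to the alternative arm, which receptors such as Ltbr and Fn14, the product of Tnfrsf12a, are known to engage. A link between these receptors and the 3 values was not tested. Nfkb1, a subunit of the classical pathway, had a log2 ratio of -0.01 (-0.13 to 0.11), while its partner Rela had 0.70 (0.56 to 0.84). These last 2 genes were named after their values were seen.

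The inhibitors and targets of NF-kappaB had 11 of 16 examined genes above 0 beyond counting error (68.8%, against 31.5% of all genes), 1 below 0 and a median of 0.56. Tnfaip3 (A20), the enzyme that limits TNF signalling, had 247 and 1101 counts, the largest difference of the list at a log2 ratio of 2.45 (2.17 to 2.75), or 5.49-fold. Nfkbie, an inhibitor that holds NF-kappaB in the cytoplasm, had 46 and 119 counts and a log2 ratio of 1.66 (0.95 to 2.43). Mmp9, a matrix protease, went the other way with 54 and 10 counts and a log2 ratio of -2.08 (-3.87 to -0.74). The list was not uniform, since 4 genes were past 2-fold upward, 1 downward, and Nfkbia, named after its value was seen, had a log2 ratio of 0.10 (-0.00 to 0.20). Neither RNA list measures the activity of NF-kappaB.

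**Figure D3:**
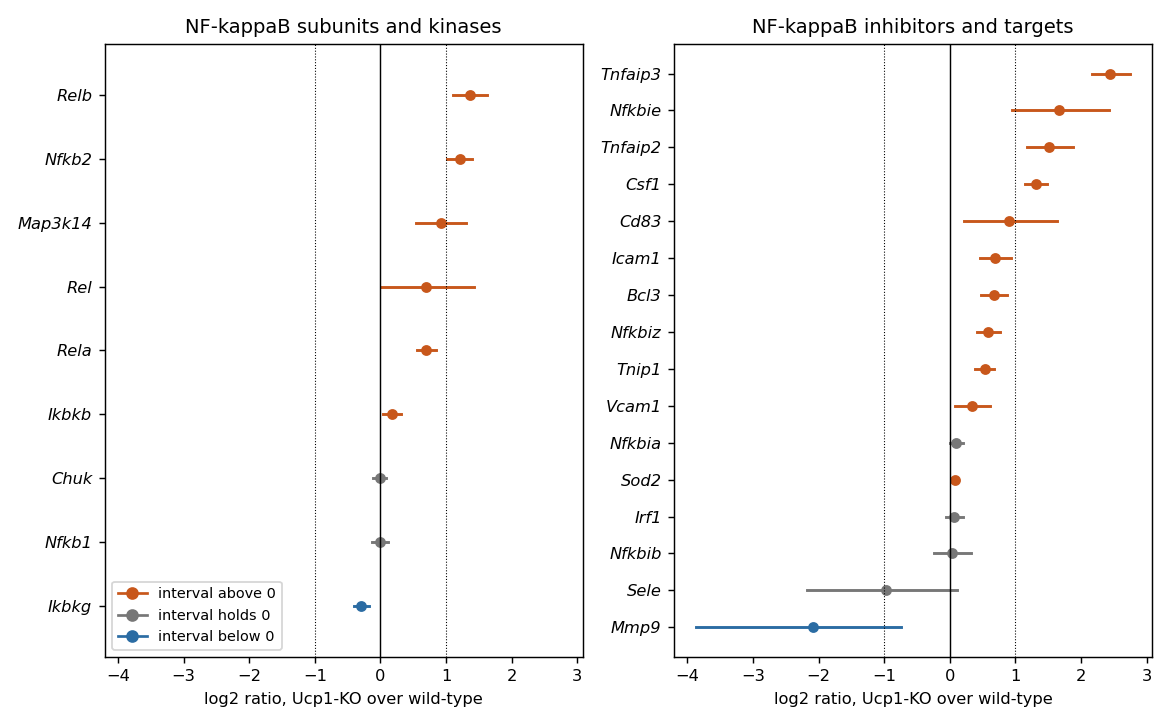
Log2 ratio of Ucp1-KO over wild-type (x axis) with exact 95% counting intervals for 9 subunits and kinases of NF-kappaB and 16 of its inhibitors and targets. Dotted lines mark a 2-fold difference. Relb, Nfkb2 and Map3k14 lead the first panel and Tnfaip3 (2.45) the second, with Mmp9 (-2.08) at the opposite end.

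Of the 5 genes that release TNF and other ligands from the membrane or restrain that release, none was past 2-fold. Timp3, an inhibitor of the sheddase ADAM17, had 50627 wild-type and 22831 Ucp1-KO counts, a log2 ratio of -0.85 (-0.88 to -0.82). Adam10 had a log2 ratio of -0.58 (-0.72 to -0.44) and Adam17, which cleaves TNF, one of -0.41 (-0.50 to -0.31). Protease and inhibitor RNAs were thus lower together.

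The markers of cell types that could carry these members moved unevenly. Macrophage markers had a median of 0.18 (-0.13 with total counts), with log2 ratios of 0.81 for Lyz2 and 0.25 for Mrc1. Of the 8 macrophage markers 4 were higher beyond counting error, 2 of them past 2-fold, and 1, Cd163 (-0.47), was lower. Dendritic cell markers had a median of -0.24, and preadipocyte and fibroblast markers one of -0.16, led by Col1a1 with 15678 and 11685 counts. Lymphocyte and natural killer cell markers were near the limit of counting, and the summed level of the latter was 0.415 wild-type and 0.733 Ucp1-KO CPM. Monocyte and neutrophil markers summed to 4.19 and 5.05 CPM, with Csf3r at 48 and 86 counts and S100a9 at 32 and 83 counts. Ly6c2 (61 and 12 counts) and S100a8 (42 and 30) lay on the other side of 0. Cd163, Ly6c2 and S100a8 were named after their values were seen. Lymphatic endothelial markers summed to 35.6 and 25.5 CPM.

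**Figure D4:**
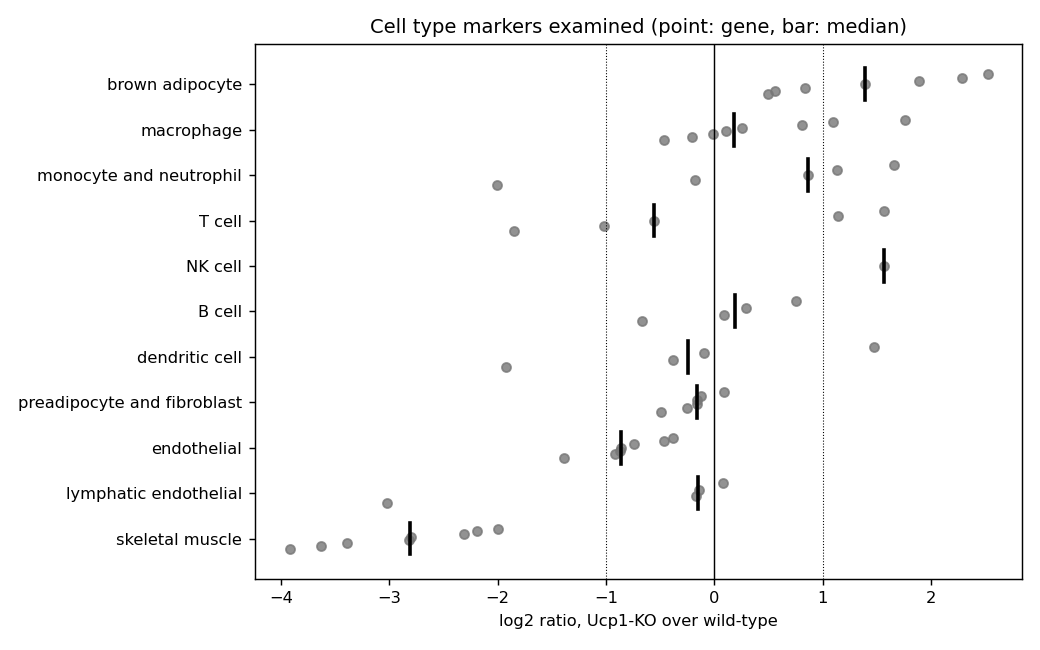
Log2 ratio of Ucp1-KO over wild-type (x axis) of the cell type markers examined. Each point is 1 gene and each bar the median of its list. Skeletal muscle markers (median -2.81) and endothelial markers (-0.86) lie below 0 and brown adipocyte markers (1.39) above it, while immune markers are spread on both sides.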

How the data were processed

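Poly-A enriched, directional libraries were made from pooled iBAT, 1 per genotype. The deposited values are whole-number counts per gene that the authors made with featureCounts, and the submitters' processing notes name Trim Galore, HISAT2 and mm39. Annotation, strand and multi-mapping settings are not given in the sources used here. The tables hold 27179 genes by Entrez identifier, 1319 of them without a symbol.

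Size factors came from DESeq2 1.42.0 in R 4.3.3 (median of ratios, 1.11 for wild-type and 0.901 for Ucp1-KO). A pseudocount of 0.5 was added to both normalised counts before the log2 ratio was taken. Low counts were mostly even (70.7% and 73.4% of genes with 1 to 10 counts), so exact conditional binomial (Clopper-Pearson) 95% intervals were computed in SciPy 1.17.1 on read pairs, taken as counts divided by 2, and the floor was 3 pairs (6 counts, 0.113 CPM). Computation was tested on simulated data. Positions, lengths and overlaps are from GENCODE release 39 (GRCm39), in which all 45 members were found, and promoters from RefSeq.

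Members and gene lists were chosen with earlier results of these data known. All members with a mean of at least 10 are named, lower ones with their counts, and up to 3 genes of each signalling list and 2 of each marker list. The planned definition by symbol would place Tnfsf13os among the ligands, and it was instead given apart. No protein sequence is shown.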

Additional observations from a re-analysis of the deposited data

How the results depend on the processing

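No paired analysis was possible because there was only 1 library for either genotype, so no replicate could be left out. Scaling by total counts moved the median of all genes to -0.31 and the share of higher genes among those past 2-fold from 43.7% to 24%. Of the 29 members examined on that scale 1 was at least 2-fold higher and 11 lower, against 732 and 2320 of 15243 genes. The medians then were -0.47 for receptors, -0.31 for adaptors and ubiquitin ligases, 0.39 for NF-kappaB subunits and kinases, 0.25 for inhibitors and targets and -0.71 for shedding genes, and the sign turned for death signalling (-0.18) and Tnfrsf10b (-0.01). A change of scaling moves every log2 ratio by the same amount apart from the pseudocount. That these shifts are near that of all genes is therefore no result about these lists. Ltbr moved to -0.27. Without a filter on low counts 7 of 41 members were at least 2-fold higher and 14 lower, against 2187 and 2844 of 18319 genes. At a minimum mean of 50, 2 of 18 members were lower by 2-fold, against 811 of 12846 genes. Beyond counting error 7 of the 18 were lower, against 4181 of these genes, and the receptor median turned to 0.04. At a size rule of 1.5 on the log2 scale 1 of 28 members was higher and 4 lower, against 603 and 796 of 15212 genes. An alternative chosen after seeing the data left out the 9 examined members that share over 10% of their exon bases with another gene. Of the remaining 19, 1 was higher and 4 lower, against 1128 and 1453 of all 15212 genes. TMM factors (edgeR 4.0.16) and total counts without mitochondrial genes gave counts of members within 1.5 times of those reported. With each of these 2 scalings 8 of 28 members were at least 2-fold lower, against 1481 and 1484 of 15213 genes. A pseudocount of 5, intervals on counts as deposited and Tnfsf13os among the ligands (also added) kept the counts of members within 1.5 times as well. For a median, the interval used here was the averaged counting interval of the middle gene or genes. It does not measure the spread of the list. Of 80 recomputed values of the main counts and medians 63 stayed within 1.5 times or that interval. A further 15 moved, and 2 with such an interval apart from 0 turned sign. The median of all members, for which that interval held 0, turned to 0.004 at a minimum mean of 50. Depth limits Tnf, Tnfsf18, Tnfsf9 and Tnfrsf26, whose intervals are wide.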
